A study of Mus musculus with 18 samples.

Results

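The genes described are 10 interferon-induced genes, chosen by name: the IFIT genes Ifit1, Ifit3 and Ifit3b, the IFITM genes Ifitm1, Ifitm2 and Ifitm3, the ISG15 system genes Isg15, Usp18 and Ube2l6, and Ifi208. They were chosen with earlier results of these data known, so their counts beside those of all genes are descriptions and not a test of the set. They are 10 of the 23414 genes in the deposited table and all 10 were among the 10257 genes with values high enough to be tested. The libraries were stranded, polyA-selected and sequenced in bulk, from CD8 T cells that were sorted out of mouse spleen cell cultures. The mice carried the P14 transgenic T cell receptor, which recognises gp33, a peptide of lymphocytic choriomeningitis virus. They were wild type (WT) or, by label, knockouts (KO) in which CD8 T cells alone lack TrIP, the product of Pik3ip1. TrIP is an inhibitor of phosphoinositide 3-kinase (PI3K). Every culture lasted 24 h and held 50 U/ml IL-2 with 2 ng/ml IL-12, also where no peptide was given. Peptide cultures received 100 ng/ml gp33, either alone or with 10 µM IC87114, which inhibits the PI3K delta isoform, and this gave 6 groups of 3 libraries. The labels name neither the driver of the knockout nor the age of the mice, and do not say whether the 3 replicates of a group came from separate animals, so p-values measure the spread between these libraries, which may be technical. Because whole spleen cells were cultured and CD8 T cells were sorted afterwards, they shared the cultures with other spleen cells for the 24 h.

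Pik3ip1 (ENSMUSG00000034614), the gene that the KO label names, went against the label. Its normalized value was 76.1 in the libraries labelled KO and 31.0 in WT without peptide, 1.61 and 0.764 with gp33, and 2.42 and 0.632 with gp33 and inhibitor, as means of 3 libraries. The libraries labelled KO lay above the WT libraries in all 3 conditions. One value per gene cannot tell whether reads came from exons that a knockout would remove. Directions between genotypes below are therefore directions between libraries as labelled, and would turn around if the labels had been exchanged.

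The 10 genes belong to the response to type I interferon, in which the receptor activates the kinases Jak1 and Tyk2, and a transcription factor complex that holds Irf9 then binds interferon-stimulated response elements (ISREs) in promoters. IFIT proteins bind foreign RNA and limit its translation, and IFITM proteins sit in cell and endosome membranes and hinder the fusion of virus with them. ISG15 is a ubiquitin-like protein that is attached to other proteins by an enzyme cascade in which Uba7 is the activating and Ube2l6 the conjugating enzyme. Usp18 removes it again and also dampens signalling from the type I interferon receptor. Ifi208 belongs to the Ifi200 (PYHIN) family, several members of which sense DNA.

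Promoter sequences were read for 9 of the 10 genes from RefSeq on the build GRCm38.p6, each a window of 250 bases before to 50 bases after the transcription start. Usp18 has no entry in that table. The 4 shown are those of Isg15, of the near-identical pair Ifit3 and Ifit3b, and of Ifitm3, the gene with the largest ratio between genotypes without peptide. Capitals mark matches to the ISRE core, a GAAA repeated after any 2 bases, on either strand, and all sequences are 5′ to 3′ on the gene's own strand. The windows are chr4:156200769-156201068 on the minus strand for Isg15, chr19:34583279-34583578 on the plus strand for Ifit3, chr19:34607707-34608006 on the plus strand for Ifit3b and chr7:141010695-141010994 on the minus strand for Ifitm3.
Isg15: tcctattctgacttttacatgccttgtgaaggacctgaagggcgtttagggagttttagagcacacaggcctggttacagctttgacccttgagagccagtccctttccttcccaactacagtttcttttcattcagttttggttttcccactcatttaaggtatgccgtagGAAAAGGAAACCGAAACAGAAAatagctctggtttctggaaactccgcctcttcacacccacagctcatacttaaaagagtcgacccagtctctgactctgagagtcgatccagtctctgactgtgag
Ifit3: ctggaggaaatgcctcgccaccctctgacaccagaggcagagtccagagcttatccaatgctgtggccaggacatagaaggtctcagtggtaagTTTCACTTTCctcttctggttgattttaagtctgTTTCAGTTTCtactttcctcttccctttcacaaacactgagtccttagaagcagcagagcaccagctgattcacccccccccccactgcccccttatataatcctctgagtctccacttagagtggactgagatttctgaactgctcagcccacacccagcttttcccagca
Ifit3b: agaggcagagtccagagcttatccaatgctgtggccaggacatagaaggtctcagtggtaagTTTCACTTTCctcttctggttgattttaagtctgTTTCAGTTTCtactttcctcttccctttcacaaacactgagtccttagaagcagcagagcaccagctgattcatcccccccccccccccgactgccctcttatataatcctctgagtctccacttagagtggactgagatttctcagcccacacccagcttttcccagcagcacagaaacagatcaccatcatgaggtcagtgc
Ifitm3: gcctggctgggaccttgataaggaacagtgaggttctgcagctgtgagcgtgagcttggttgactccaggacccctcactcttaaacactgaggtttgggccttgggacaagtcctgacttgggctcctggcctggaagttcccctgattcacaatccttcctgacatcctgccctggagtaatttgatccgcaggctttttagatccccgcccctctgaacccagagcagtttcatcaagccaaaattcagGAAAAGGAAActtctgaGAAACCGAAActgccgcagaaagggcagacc

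The ISRE core was found in 7 of the 9 windows, against 1131 of 32851 promoter windows of the same length in the whole table (3.44%). Isg15 held 3 overlapping matches that began 78, 72 and 66 bases before the start and are seen above as 1 run of capitals. Ifit1 held matches that began 104 and 85 bases before the start, Ifit3 at 156 and 122, and Ifit3b at 188 and 154. The windows of Ifit3 and Ifit3b shared an identical run of 169 bases that holds both matches. Ifitm2 had a match that began 46 bases before the start and Ifi208 at 58, while both matches of Ifitm3 lay after the start, beginning at bases 2 and 19. No match to the ISRE core was found in the windows of Ifitm1 and Ube2l6. The gamma-activated site TTCNNNGAA, searched on both strands, was found in 1 of the 9 windows, that of Ifitm3, against 8.3% of all windows. A match is a description of these letters and not evidence that a factor binds there.

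**Figure D1:**
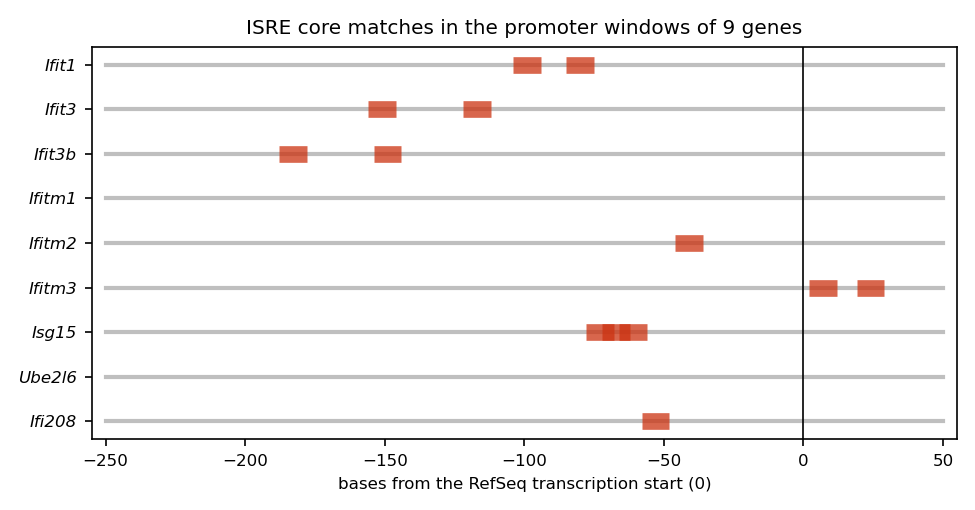
Matches to the ISRE core in the promoter windows of 9 genes, as distance in bases from the RefSeq transcription start on the horizontal axis. Each red block is 1 match of the core; 7 of the 9 windows hold at least 1, those of Ifitm3 lie after the start, and the windows of Ifitm1 and Ube2l6 hold none.

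The libraries were checked for the cells they should hold. Summed normalized values of 8 CD8 T cell markers were 1346 to 1478 without peptide and 474 to 773 with gp33, with or without inhibitor, and CD4 T cell markers summed to at most 1.67. Markers of other cell types were present and moved with the groups. The 11 myeloid and dendritic cell markers in the table, of 12 listed, summed to 88.5 to 114 in WT and 296 to 383 in the libraries labelled KO without peptide, to 51.9 to 62.2 and 134 to 168 with gp33, and to 53.4 to 72.1 and 66.4 to 109 with inhibitor. Without Ly6c2, which CD8 T cells also make, the sums were 62.9 to 88.0 and 138 to 223 without peptide, 43.1 to 52.9 and 112 to 150.5 with gp33, and 51.9 to 70.02 and 61.8 to 99.8 with inhibitor, where the genotypes overlapped. B cell markers summed to 3212 to 7203 in WT and 1786 to 21090 in the libraries labelled KO without peptide, with the highest sum in KO replicate 3. Of the 9 B cell markers tested, 7 were called lower and 0 higher in the libraries labelled KO without peptide (median log2 fold change -0.84), 0 were called between genotypes with gp33, and all 9 fell with gp33 in both genotypes. Of all genes tested, 7.23% were called lower between genotypes without peptide and 24% were called in either direction with gp33. The share that fell with gp33 was 31.6% in WT and 27.3% in the libraries labelled KO. The 6 NK cell markers summed to at most 3.59 in WT and 14.6 in the libraries labelled KO, and Ncr1, Klra8 and Klra4 were at 0 in all WT libraries. Of these markers 2 were tested, Fcer1g and Tyrobp. Both were called higher in KO-labelled libraries without peptide (log2 fold changes 1.67 and 1.66) and with gp33 (0.76 and 0.63). Neither was called with inhibitor. The erythroid markers tested, Hba-a2 (1.61) and Hba-a1 (1.37), were called higher in KO-labelled libraries without peptide only. Among all genes tested, 5.69% were called higher without peptide and 14.9% with gp33. Myeloid cells also make several of the genes described here. The part of these cells in the results was not tested, and in bulk samples fewer cells of a type and less RNA per cell cannot be told apart. Library correlations with the rest of the group averaged 0.961 to 0.996, the lowest in WT replicate 2 with inhibitor, and the sequencing depth is unknown.

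Levels are given as normalized values, which are the authors' log values turned back to a linear scale, and differences as log2 fold changes on log2(value + 1) from limma. Because 1 is added, fold changes of weakly expressed genes come out below the ratio of means. A gene is called where the Benjamini-Hochberg adjusted p over all 10257 genes is under 0.05. Levels of different genes were not compared with each other.

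**Figure D2:**
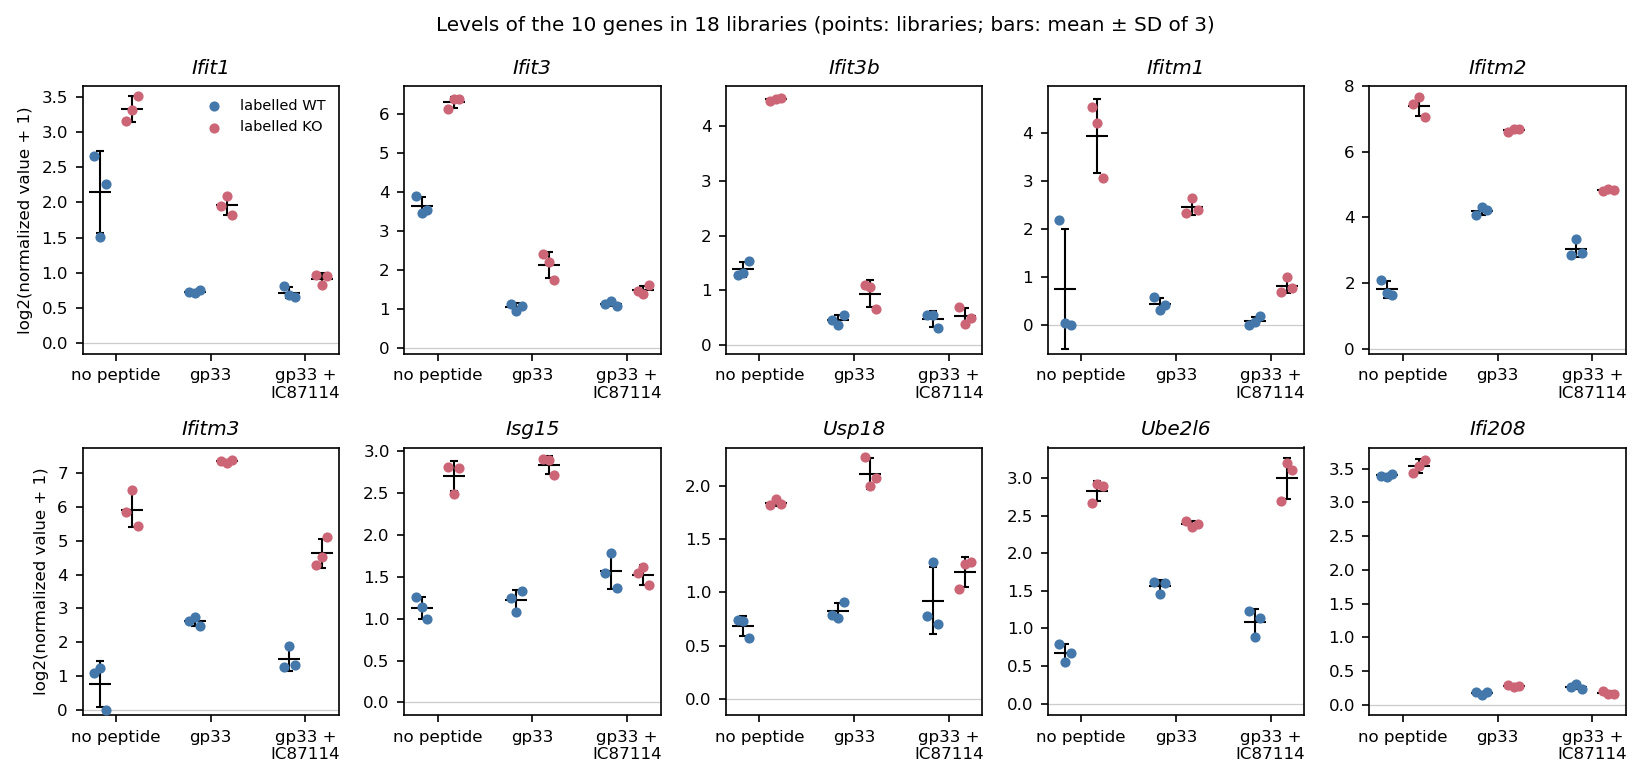
Levels of the 10 genes as log2(normalized value + 1) on the vertical axis in the 6 groups, with 1 point per library and a line and bar for the mean ± SD of 3. Without peptide the libraries labelled KO lie above WT for all 10 genes, while with gp33 and inhibitor the genotypes overlap for Isg15, Usp18 and Ifit3b, and every library with gp33 has Ifi208 at a normalized value of 0.243 or less.

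Without peptide, the comparison of genotypes asks what differed after 24 h of culture with IL-2 and IL-12 but no antigen. All genes but Ifi208 were higher in the libraries labelled KO, 9 of 10 called and 0 lower, against 12.9% of all genes tested called in either direction, 5.69% higher and 7.23% lower. The median log2 fold change of the 10 was 2.41, against 0.01 for all genes tested. The 10 genes had no overlap between the groups, as had 27.8% of all genes tested.

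Among the IFIT genes, Ifit3 (ENSMUSG00000074896), whose human counterpart binds and stabilises IFIT1, had normalized values of 13.97, 10.1 and 10.6 in WT and 70.0, 82.8 and 83.4 in the libraries labelled KO. The groups were far apart, with the lowest KO library at 70.0 and the highest WT library at 13.97. The means were 11.5 ± 2.11 (SD, n = 3) and 78.7 ± 7.57, a ratio of 6.82 and a log2 fold change of 2.68 (SE 0.15, limma adjusted p = 2.96e-08). Ifit3b (ENSMUSG00000062488), a mouse copy of Ifit3, was at 1.44, 1.51 and 1.91 in WT and 20.9, 21.5 and 21.9 in the libraries labelled KO. Its 3 libraries in each group lay close together, and the ratio of means was 13.2 (log2 fold change 3.10, SE 0.12, limma adjusted p = 3.84e-10). Ifit1 (ENSMUSG00000034459), which binds RNA whose cap lacks the methylation of host messengers, was at 5.33, 1.85 and 3.79 in WT and 7.88, 8.94 and 10.4 in the libraries labelled KO. Its WT libraries spread the most of the 3 IFIT genes relative to their mean, and the log2 fold change was 1.18 (SE 0.20, limma adjusted p = 0.00104). That call ended when only the 6 libraries compared were fitted (limma adjusted p = 0.0664). Of all 50-base windows of the Ifit3 transcripts, 51.2% also occur in Ifit3b, and 44.5% of those of Ifit3b occur in Ifit3, so how reads were divided between the pair is uncertain.

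Ifitm3 and Ifitm2 had the largest ratios of means of the 10 genes. Ifitm3 (ENSMUSG00000025492), which protects mice from severe influenza, was at 1.12, 1.37 and 0 in WT and at 56.6, 88.4 and 42.1 in the libraries labelled KO. Low or absent RNA in every WT library stood against at least 42.1 in every library labelled KO, a ratio of means of 75.4 (log2 fold change 5.15, SE 0.32, limma adjusted p = 6.70e-08). Ifitm2 (ENSMUSG00000060591), its neighbour on chromosome 7, was at 3.30, 2.25 and 2.08 in WT and at 176, 201 and 132 in the libraries labelled KO. The groups did not come near each other, with means of 2.54 ± 0.660 (SD, n = 3) and 169.9 ± 34.8 and a log2 fold change of 5.59 (SE 0.16, limma adjusted p = 4.26e-11). Ifitm1 (ENSMUSG00000025491), the member of the family found mainly at the cell surface, was at 3.56, 0.021 and 0 in WT and at 22.5, 17.5 and 7.38 in the libraries labelled KO. Its libraries spread widely within both groups, and the log2 fold change was 3.20 (SE 0.46, limma adjusted p = 2.74e-04). Myeloid markers were also higher in the same libraries, among them the neutrophil gene S100a8 at 9.77, 38.6 and 44.9 in the libraries labelled KO and 0.740, 0 and 0 in WT. Of the 7 myeloid markers tested, 4 were called higher and 0 lower in this comparison, and their part in the IFITM values was not tested. The 4 called were Ly6c2, S100a8, S100a9 and Cd68, the last at a log2 fold change of 1.62 (limma adjusted p = 0.00506). Lyz2 at 3.01, Cd14 at 0.95 and Cst3 at -0.01 were not called. The macrophage markers Adgre1 and Csf1r, also on the list, were at or near 0 in every library, at most 0.06 and 0.104.

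Ifitm2 shares 48.5% of its 50-base windows with other genes, the most with the protein-coding gene Gm45717 (36.1%), which was not analysed here. Others were the processed pseudogenes Gm11951 (14.9%) and Gm8865 (12.4%). Both pseudogenes differed in the same direction as Ifitm2, with log2 fold changes of 5.28 (limma adjusted p = 1.86e-06) and 4.17 (limma adjusted p = 9.17e-09) without peptide. How reads were divided among these copies is uncertain.

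The ISG15 system genes were also higher. Isg15 (ENSMUSG00000035692), the modifier itself, was at 1.39, 1.21 and 0.995 in WT and at 6.03, 4.63 and 5.96 in the libraries labelled KO. The groups were clear of each other, with a ratio of means of 4.63 (log2 fold change 1.57, SE 0.12, limma adjusted p = 6.49e-07). Usp18 (ENSMUSG00000030107), the enzyme that removes ISG15, was at 0.674, 0.660 and 0.488 in WT and at 2.53, 2.67 and 2.55 in the libraries labelled KO. Its KO libraries were almost equal, and the log2 fold change was 1.16 (SE 0.13, limma adjusted p = 2.30e-05). Ube2l6 (ENSMUSG00000027078), the conjugating enzyme, was at 0.738, 0.468 and 0.599 in WT and at 5.38, 6.57 and 6.45 in the libraries labelled KO. The ratio of means was 10.2, larger than those of Isg15 and Usp18, and the log2 fold change 2.15 (SE 0.13, limma adjusted p = 4.10e-08).

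Ifi208 (ENSMUSG00000066677) was the exception. It was at 9.51, 9.41 and 9.72 in WT and at 9.76, 10.6 and 11.4 in the libraries labelled KO. The groups did not overlap, but the lowest KO library, at 9.76, lay next to the highest WT library, at 9.72, and the log2 fold change of 0.14 (95% CI 0.01 to 0.26, limma adjusted p = 0.158) was not called. The 9 calls of this comparison stood whichever of the 18 libraries was left out.

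**Figure D3:**
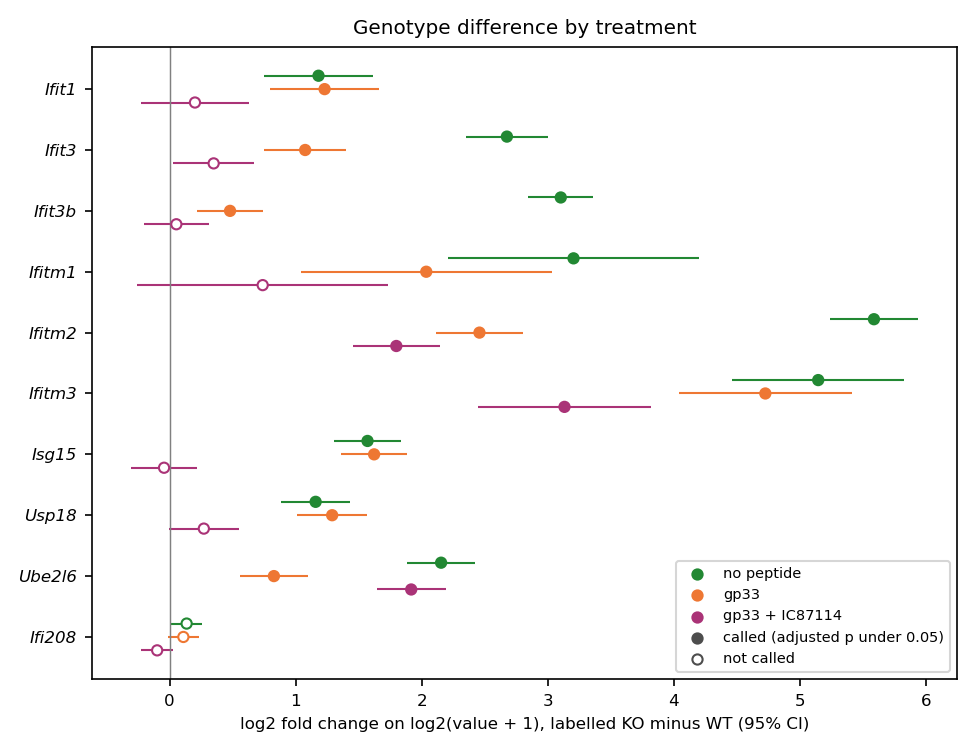
Difference between libraries labelled KO and WT for the 10 genes, as log2 fold change on log2(value + 1) with 95% confidence intervals on the horizontal axis, in 3 colours for no peptide, gp33, and gp33 with IC87114. Filled points are called at an adjusted p under 0.05 and open points are not; Ifitm2, Ifitm3 and Ube2l6 are filled in all 3 conditions and Ifi208 in none.

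With gp33, the comparison of genotypes asks what differed 24 h after antigen. The same 9 genes were called in the libraries labelled KO, all higher, against 24% of all genes tested called, 14.9% higher and 9.09% lower. The median log2 fold change of the 10 was 1.26, against 0.00 for all genes tested. No gene of the 10 had overlapping groups, but neither had 55.7% of all genes tested.

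Ifitm3 was at 5.23, 5.71 and 4.56 in WT and at 162, 157 and 166 in the libraries labelled KO. The KO libraries were tightly grouped, at a ratio of means of 31.3 (log2 fold change 4.73, SE 0.32, limma adjusted p = 1.01e-07). Ifitm2 was at 15.7, 19.03 and 17.7 in WT and at 95.5, 103 and 103 in the libraries labelled KO. The ratio of 5.74 (log2 fold change 2.46, SE 0.16, limma adjusted p = 8.17e-08) came with higher WT values than without peptide. Ifitm1 was at 0.492, 0.233 and 0.323 in WT and at 4.05, 5.29 and 4.29 in the libraries labelled KO, well apart, with a log2 fold change of 2.04 (SE 0.46, limma adjusted p = 0.00529). Of the 7 myeloid markers tested, 3 were called higher and 0 lower here, and their part was not tested. The 3 were Cst3, Cd14 and Ly6c2, which CD8 T cells also make, while S100a8, S100a9, Lyz2 and Cd68 were not called.

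Isg15 was at 1.37, 1.12 and 1.51 in WT and at 6.51, 6.44 and 5.58 in the libraries labelled KO. The ratio of means was 4.63, as it was without peptide, and the log2 fold change 1.62 (SE 0.12, limma adjusted p = 3.11e-07). Usp18 was at 0.729, 0.697 and 0.884 in WT and at 3.83, 2.99 and 3.19 in the libraries labelled KO. Its groups were again clear of each other, with a log2 fold change of 1.29 (SE 0.13, limma adjusted p = 5.15e-06). Ube2l6 was at 2.06, 1.76 and 2.05 in WT and at 4.36, 4.09 and 4.26 in the libraries labelled KO, a narrower gap with a ratio of means of 2.17 (log2 fold change 0.83, SE 0.13, limma adjusted p = 2.75e-04).

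The IFIT genes among the 10 were low in both stimulated groups. Ifit1 was at 0.645, 0.634 and 0.691 in WT and at 2.87, 3.28 and 2.54 in the libraries labelled KO (log2 fold change 1.23, SE 0.20, limma adjusted p = 4.81e-04). Ifit3 was at 1.18, 0.919 and 1.12 in WT and at 4.32, 3.63 and 2.36 in the libraries labelled KO (log2 fold change 1.08, SE 0.15, limma adjusted p = 1.29e-04). The KO libraries of Ifit3 spread from 2.36 to 4.32 but stayed above all WT libraries. Ifit3b was at 0.378, 0.291 and 0.465 in WT and at 1.15, 1.09 and 0.573 in the libraries labelled KO, with KO replicate 3 close to WT. Its log2 fold change was 0.48 (SE 0.12, limma adjusted p = 0.00988), a call that ended without KO replicate 2 (limma adjusted p = 0.0553). Ifi208 was at 0.138, 0.105 and 0.136 in WT and at 0.223, 0.206 and 0.216 in the libraries labelled KO. The groups did not overlap, and the log2 fold change of 0.11 was not called (limma adjusted p = 0.199), while with a pseudocount of 0.25 it was 0.31 and called (limma adjusted p = 0.0257).

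With gp33 and IC87114, the comparison of genotypes asks what remained different with PI3K delta blocked. Ifitm2, Ifitm3 and Ube2l6 were higher in the libraries labelled KO, 3 of 10 called and 0 lower, against 4.62% of all genes tested called, 2.01% higher and 2.61% lower. The other 7 genes were not called. The median log2 fold change of the 10 was 0.31, against 0.01 for all genes tested, and 7 of the 10 had groups that did not overlap, against 28.6% of all genes tested.

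Ifitm3 was at 1.42, 2.71 and 1.51 in WT and at 18.4, 21.9 and 33.3 in the libraries labelled KO. All KO libraries were far above WT, at a ratio of means of 13.0 (log2 fold change 3.13, SE 0.32, limma adjusted p = 4.01e-05). Ifitm2 was at 6.31, 9.19 and 6.59 in WT and at 27.1, 28.5 and 27.7 in the libraries labelled KO, also clear of each other, at a ratio of 3.77 (log2 fold change 1.80, SE 0.16, limma adjusted p = 1.38e-05). Ube2l6 was at 1.34, 0.845 and 1.20 in WT and at 5.46, 8.20 and 7.60 in the libraries labelled KO. Its ratio of 6.28 (log2 fold change 1.92, SE 0.13, limma adjusted p = 6.02e-07) was wider than with gp33 alone. Of the 7 myeloid markers tested, 1 was called higher and 0 lower in this comparison, and that 1 was Ly6c2 (log2 fold change 1.15, limma adjusted p = 0.00862).

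Isg15 showed no such gap. It was at 1.92, 2.46 and 1.59 in WT and at 1.93, 2.08 and 1.63 in the libraries labelled KO. The groups overlapped fully, with a ratio of means of 0.947 and a log2 fold change of -0.04 (95% CI -0.31 to 0.22, limma adjusted p = 0.867). Usp18 was at 0.718, 1.44 and 0.626 in WT and at 1.05, 1.40 and 1.44 in the libraries labelled KO. WT replicate 2 lay among the KO libraries, and the log2 fold change was 0.27 (limma adjusted p = 0.281), or 0.45 and called without that library (limma adjusted p = 0.0169). WT replicate 2 was also the library with the lowest correlation to its group.

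The IFIT genes, Ifitm1 and Ifi208 were not called between genotypes with inhibitor. Ifit1 was at 0.746, 0.602 and 0.579 in WT and at 0.959, 0.779 and 0.927 in the libraries labelled KO (log2 fold change 0.20, limma adjusted p = 0.596). Ifit3 was at 1.18, 1.30 and 1.11 in WT and at 1.74, 1.63 and 2.05 in the libraries labelled KO (log2 fold change 0.35, limma adjusted p = 0.234). Neither gene had overlapping groups, and neither was called. Ifit3b ranged from 0.246 to 0.473 in WT and from 0.314 to 0.628 in the libraries labelled KO (log2 fold change 0.05, limma adjusted p = 0.835). Ifitm1 ranged from 0 to 0.128 in WT and from 0.616 to 1.007 in the libraries labelled KO, without overlap. Its ratio of means was 13.1, against 13.2 without peptide and 13.0 with gp33, at values near 0 for which adding 1 lowers the log2 fold change, here 0.74, whose 95% CI ran from -0.26 to 1.73 (limma adjusted p = 0.406). The WT mean without peptide came mostly from 1 library, at 3.56 against 0.021 and 0, so the likeness of these ratios carries little weight. Ifi208 was at 0.200, 0.243 and 0.179 in WT and at 0.155, 0.115 and 0.113 in the libraries labelled KO, lower in the latter without overlap, at a log2 fold change of -0.10 (limma adjusted p = 0.379).

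The response to gp33 within each genotype shows that the 10 genes did not move together. Every culture lasted 24 h, so rises and falls here and below are differences between parallel cultures and not changes over time. In WT, Ifitm2, Ifitm3 and Ube2l6 rose, Ifi208, Ifit1, Ifit3 and Ifit3b fell, and Isg15, Usp18 and Ifitm1 were not called, which makes 3 higher and 4 lower against 42.1% of all genes tested called higher and 31.6% called lower (73.7% in all). In the libraries labelled KO, Ifitm3 alone rose, 7 genes fell, and Isg15 and Usp18 were not called, against 41.1% of all genes tested called higher and 27.3% lower (68.5% in all). The median log2 fold change of the 10 was -0.11 in WT and -1.05 in the libraries labelled KO, against 0.19 and 0.20 for all genes tested.

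Ifi208 fell the most relative to its level without peptide, from 9.55 ± 0.159 (SD, n = 3) to 0.126 ± 0.019 in WT and from 10.6 ± 0.827 to 0.215 ± 0.009 in the libraries labelled KO. These are means 75.5-fold and 49.3-fold lower, with log2 fold changes of -3.23 and -3.25. Ifit3 fell by 2.59 on the log2 scale in WT and by 4.19 in the libraries labelled KO, and Ifit3b by 0.92 and 3.55. Both had much higher values without peptide in the libraries labelled KO and were low with gp33 in both genotypes. The difference between the genotypes in the response was -1.60 for Ifit3 (limma adjusted p = 1.03e-04) and -2.62 for Ifit3b (limma adjusted p = 2.29e-07). Ifit1 fell by 1.42 and 1.37, and the difference between its responses was not called.

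Ifitm2 moved in opposite directions. It rose from 2.54 ± 0.660 to 17.5 ± 1.68 in WT (log2 fold change 2.40, SE 0.16, limma adjusted p = 5.31e-09) and fell from 169.9 ± 34.8 to 100.4 ± 4.19 in the libraries labelled KO (log2 fold change -0.73, limma adjusted p = 0.00100). The difference of -3.13 was called (limma adjusted p = 8.17e-07). Ube2l6 did likewise, with a rise of 0.88 in WT (limma adjusted p = 1.74e-05) and a fall to 4.23 from 6.13 in the libraries labelled KO (log2 fold change -0.44, limma adjusted p = 0.00654), a difference of -1.33 (limma adjusted p = 1.20e-04). Ifitm3 rose in both, by 1.84 in WT (limma adjusted p = 1.09e-04) and 1.42 in the libraries labelled KO (limma adjusted p = 0.00113). Ifitm1 was at -0.31 in WT (limma adjusted p = 0.553) and fell by 1.48 in the libraries labelled KO (limma adjusted p = 0.0111). The KO call ended without KO unstimulated replicate 1 (limma adjusted p = 0.0543) or with a pseudocount of 0.25 (limma adjusted p = 0.0721). The Ifitm1 difference of -1.17 was not called (limma adjusted p = 0.212). Without WT unstimulated replicate 1 it was -1.89 and called (limma adjusted p = 0.00496).

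With gp33, Isg15 and Usp18 were close to their values without peptide. The log2 fold change of Isg15 was 0.09 in WT (limma adjusted p = 0.533) and 0.14 in the libraries labelled KO (limma adjusted p = 0.327), and that of Usp18 0.14 (limma adjusted p = 0.338) and 0.27 (limma adjusted p = 0.0759). The Usp18 response in the libraries labelled KO was called when only the groups compared were fitted (limma adjusted p = 0.0478), when protein-coding genes alone were rescaled (0.38, limma adjusted p = 0.0112), or without WT replicate 2 with inhibitor (limma adjusted p = 0.0115). Across both genotypes, 4 genes differed in their response, all with a lower value in the libraries labelled KO, against 25.3% of all genes tested called and 9.6% called lower.

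**Figure D4:**
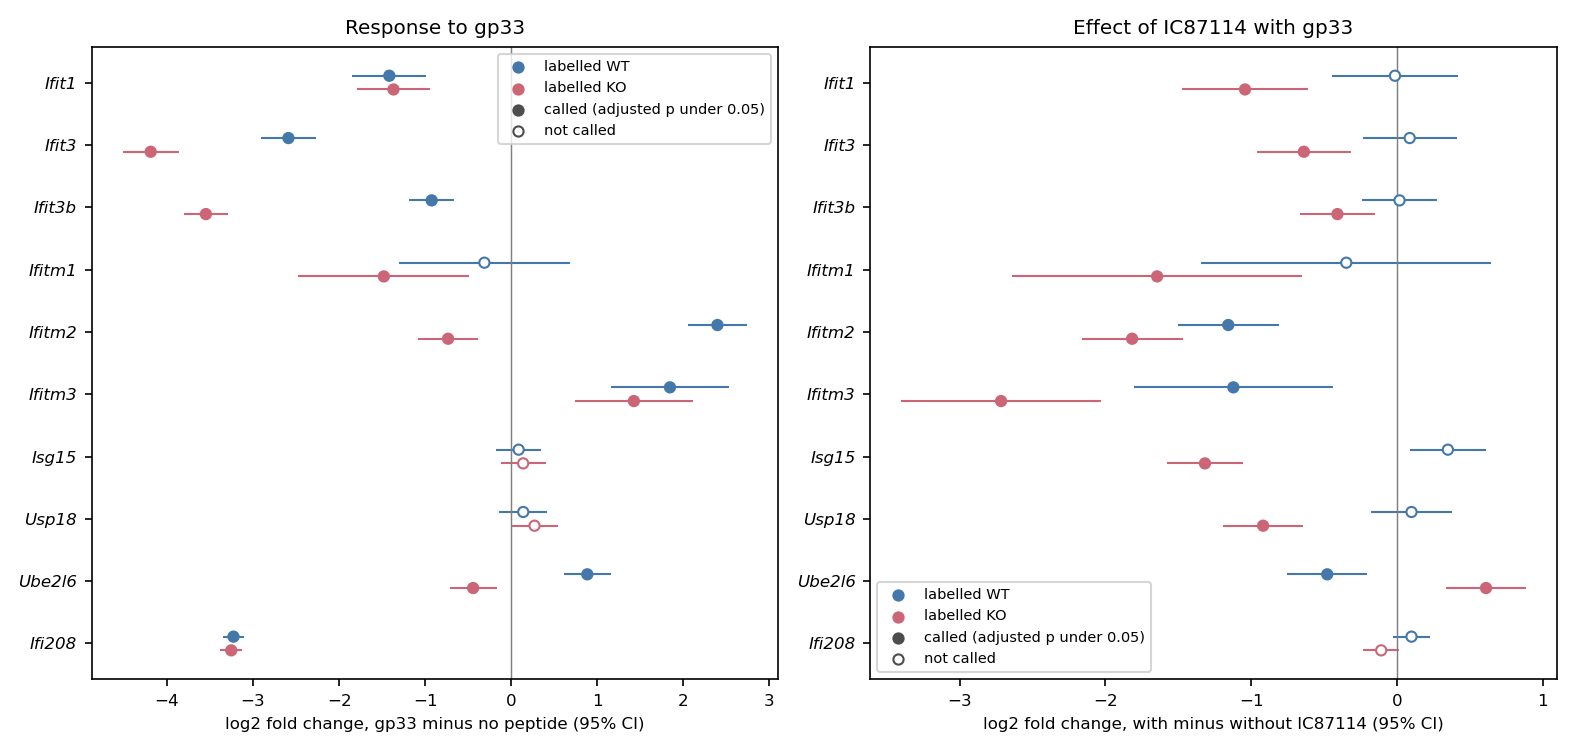
Log2 fold changes with 95% confidence intervals on the horizontal axis for the response to gp33 (left) and for adding IC87114 to gp33 (right), in WT libraries (blue) and libraries labelled KO (red). Filled points are called at an adjusted p under 0.05. Ifitm2 and Ube2l6 point in opposite directions in the left panel. In the right panel Ube2l6 alone has filled points in opposite directions, while several other genes have opposite signs with the WT point open. Isg15 and Usp18 are filled only for the inhibitor in the libraries labelled KO.

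Adding IC87114 to gp33 asks what PI3K delta inhibition changed in stimulated cells. These comparisons share the gp33 libraries with the response to gp33. In the libraries labelled KO, 8 of the 10 genes fell and Ube2l6 rose, against 19.3% of all genes tested called lower and 9.17% called higher (28.4% in all). In WT, 3 of the 10 fell and 0 rose, against 5.15% called lower and 3.31% called higher (8.46% in all). The median log2 fold change of the 10 was -0.98 in the libraries labelled KO and 0.00 in WT, against -0.04 and -0.05 for all genes tested.

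Isg15 fell from 6.18 ± 0.519 (SD, n = 3) to 1.88 ± 0.227 in the libraries labelled KO (log2 fold change -1.32, limma adjusted p = 1.95e-06). In WT it was at 1.33 ± 0.200 and 1.99 ± 0.441 (log2 fold change 0.35, limma adjusted p = 0.0967), not called though the groups did not overlap. Without WT replicate 3 with inhibitor the WT value was 0.45 and called (limma adjusted p = 0.0437). The difference between the genotypes of -1.67 was called (limma adjusted p = 3.03e-05). Usp18 followed the same course, with a fall of 0.92 in the libraries labelled KO (limma adjusted p = 1.05e-04), a log2 fold change of 0.10 in WT (limma adjusted p = 0.664) and a difference of -1.02 (limma adjusted p = 0.00292). Ube2l6 went the other way: it rose from 4.23 ± 0.138 to 7.09 ± 1.44 in the libraries labelled KO (log2 fold change 0.61, limma adjusted p = 0.00232) and fell from 1.95 ± 0.171 to 1.13 ± 0.255 in WT (log2 fold change -0.48, limma adjusted p = 0.0315). The difference of 1.09 was called (limma adjusted p = 0.00155). The calls for the differences of Isg15 and Ube2l6 held under every alternative tried. The call for the difference of Usp18 held under every alternative in which Usp18 was tested. The alternative with a higher filter left Usp18 out, because its values were too low. The WT call of Ube2l6 was lost without any 1 of the WT gp33 libraries (limma adjusted p of 0.0610 to 0.113), without WT replicate 2 with inhibitor (limma adjusted p = 0.0952), with only the groups compared (limma adjusted p = 0.106) and with no filter (limma adjusted p = 0.0504).

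Ifitm2 fell in both genotypes, by 1.82 in the libraries labelled KO (limma adjusted p = 1.42e-06) and by 1.16 in WT (limma adjusted p = 4.11e-04). Ifitm3 fell from 162 ± 4.30 to 24.5 ± 7.82 in the libraries labelled KO (log2 fold change -2.72, limma adjusted p = 2.16e-05). In WT it fell from 5.16 ± 0.578 to 1.88 ± 0.717 (log2 fold change -1.12, limma adjusted p = 0.0434), and this call ended without any 1 of 10 of the 18 libraries (limma adjusted p of 0.0512 to 0.139), with only the groups compared (0.0515), with no filter (0.0775) or with a pseudocount of 0.25 (0.123). Ifitm1 fell by 1.64 in the libraries labelled KO (limma adjusted p = 0.0158). That call ended without KO gp33 replicate 2 (limma adjusted p = 0.0607) or KO replicate 1 with inhibitor (limma adjusted p = 0.0521). The difference between genotypes of -1.30 was not called (limma adjusted p = 0.232). It was called with only the groups compared (limma adjusted p = 9.02e-04) and without WT unstimulated replicate 1 (limma adjusted p = 0.0452).

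The IFIT genes among the 10 fell with inhibitor in the libraries labelled KO. Ifit1 fell by 1.04 (limma adjusted p = 0.00135), Ifit3 by 0.64 (limma adjusted p = 0.00552) and Ifit3b by 0.41 (limma adjusted p = 0.0204). The groups of Ifit3b overlapped, and its call ended without KO gp33 replicate 1 or 2 or KO replicate 2 or 3 with inhibitor (limma adjusted p of 0.0650 to 0.0950). In WT the log2 fold changes of Ifit1, Ifit3 and Ifit3b were -0.01, 0.09 and 0.02, and 0 were called. The differences between genotypes were called for Ifit1 at -1.03 (limma adjusted p = 0.0343), Ifit3 at -0.73 (limma adjusted p = 0.0456) and Ifitm3 at -1.59 (limma adjusted p = 0.0390), and all 3 calls were lost with no filter on low values. That of Ifitm3 was also lost with a pseudocount of 0.25 (-1.36, limma adjusted p = 0.279). That of Ifit3 was lost with a replicate block by number (limma adjusted p = 0.0624) or by letter (0.0846). In all, 1 gene had a higher and 5 a lower inhibitor effect in the libraries labelled KO, against 3.27% and 6.47% of all genes tested (9.74% in all). The mean of Ifi208 with inhibitor was 1.64 times that with gp33 alone in WT and 0.593 times in the libraries labelled KO, both without overlap. Its log2 fold changes of 0.10 (limma adjusted p = 0.305) and -0.11 (limma adjusted p = 0.194) and their difference of -0.21 (limma adjusted p = 0.131) were not called. With a pseudocount of 0.25, the value in the libraries labelled KO was -0.30 (limma adjusted p = 0.0232) and the difference -0.58 (limma adjusted p = 0.0123), both called.

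Ranked by mean, the groups did not run in the same order for all genes. Ifit1, Ifit3, Ifit3b and Ifi208 were highest in the unstimulated libraries labelled KO and next in unstimulated WT, which for Ifit1 overlapped with the gp33 libraries labelled KO. Ifitm1 and Ifitm2 were highest in the unstimulated and next in the gp33 libraries labelled KO. Ifitm3, Isg15 and Usp18 were highest in the gp33 libraries labelled KO and next in the unstimulated libraries labelled KO, which overlapped for Isg15. Ube2l6 was highest with inhibitor in the libraries labelled KO, overlapping with the unstimulated libraries labelled KO. At the low end, WT libraries with gp33 and with gp33 and inhibitor overlapped for Ifit1, Ifit3, Ifit3b and Usp18. Ifitm2, Ifitm3, Ube2l6, Isg15 and Usp18 were lowest in unstimulated WT, which overlapped with WT with gp33 for Isg15 and with no neighbour for the others.

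Other genes of the pathway were counted from whole lists, with named genes taken by their p-value. The genotype counts of every list stand against the shares of all genes tested. These were 5.69% higher and 7.23% lower in KO-labelled libraries without peptide, 14.9% and 9.09% with gp33, and 2.01% and 2.61% with inhibitor. Of 7 interferon ligand and receptor genes, 5 were tested. Without peptide 2 of them were higher and 1 lower in KO-labelled libraries, 3 and 0 with gp33, and 1 and 1 with inhibitor. Ifng, which encodes interferon gamma, was at 2.87, 48.6 and 1.504 in the libraries labelled KO and 0.012, 0.434 and 0.321 in WT without peptide (log2 fold change 2.66, limma adjusted p = 0.0316). KO replicate 2 stood far above the other libraries of that group. With gp33 Ifng ranged from 725 to 1092 in the libraries labelled KO and from 49.0 to 70.2 in WT (log2 fold change 3.91, limma adjusted p = 0.00170), and with inhibitor from 43.5 to 66.3 and from 1.83 to 4.82 (log2 fold change 3.68, limma adjusted p = 0.0106). Ifngr2, a chain of its receptor, was lower without peptide at -0.49 and with inhibitor at -0.48, and the type I receptor chains were higher, Ifnar2 without peptide at 0.30 and Ifnar1 with gp33 at 0.48. Ifna4, a type I interferon, was not tested, and its highest value in any library was 0.347.

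Of 14 signalling genes, 11 were tested. Without peptide 5 of them were higher and 1 lower in KO-labelled libraries, 5 and 0 with gp33, and 0 and 1 with inhibitor. Without peptide the transcription factor gene Irf1 was higher at 1.00 and Irf9 at 0.50. With gp33 the smallest p-values belonged to Irf5 at 1.03, Irf9 at 0.89 and Irf7 at 0.89. With inhibitor Irf7 alone was called, at -0.85. Irf7, which amplifies the type I response, had means of 12.98 and 30.6 without peptide, 2.47 and 5.50 with gp33, and 4.23 and 1.94 with inhibitor in WT and in the libraries labelled KO.

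Of 41 other type I interferon response genes, 27 were tested. Without peptide 18 of them were higher and 0 lower in KO-labelled libraries (median log2 fold change 0.68), 10 and 0 with gp33 (median 0.27), and 2 and 2 with inhibitor (median 0.01). The 2'-5' oligoadenylate synthetase gene Oas1a was higher in all 3 conditions, at 1.38, 0.95 and 0.43, and Slfn1 was lower with inhibitor at -0.59. Ifit2, an IFIT gene outside the 10 described, was not called between genotypes in any condition, at -0.11, 0.16 and 0.01. With gp33, 22 of the 27 fell in WT and 25 in the libraries labelled KO, and 1 rose in each. Of all genes tested, 31.6% fell and 42.1% rose in WT, and 27.3% and 41.1% in the libraries labelled KO. Inhibitor lowered 10 and raised 0 in the libraries labelled KO and lowered 1 and raised 4 in WT. Of all genes tested, 19.3% were lowered and 9.17% raised in the libraries labelled KO, and 5.15% and 3.31% in WT.

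Of 8 other genes of ISG15 conjugation listed, 5 were tested. Without peptide Uba7, the activating enzyme, was higher at 0.80 and no other was called, against 12.9% of all genes tested called in either direction. With gp33 or with inhibitor 0 were called, against 24% and 4.62%. With so few genes, these counts cannot be told from the shares of all genes. Herc6, the main ISG15 ligase of the mouse, was below the filter, with at most 0.579 in any library. The IFITM list had 1 gene tested of 4, Ifitm10, which was higher without peptide at 0.42 and not called with gp33 (0.03) or inhibitor (0.01). Of 22 interferon gamma response genes tested of 26 listed, 21 were higher and 0 lower without peptide (median 1.24), 3 were higher and 6 lower with gp33 (median -0.20), and 4 were higher and 0 lower with inhibitor (median 0.25). The 3 with the smallest p-values with inhibitor were the GTPase gene Gm4951 at 0.93, the peptide transporter gene Tap1 at 0.54 and the GTPase gene Iigp1 at 1.59.

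The genes most like each member were the 3 protein-coding genes with the highest Pearson correlation of log2(value + 1) over the 18 libraries, which share the 6 groups and their composition. For Ifit3 they were Abi3, Tmem140 and Rtp4 (r of 0.98 to 0.99), for Ifit3b Pilrb1, Ms4a6c and Oasl2 (0.98), and for Ifit1 Casp1, Parp11 and Irf9 (0.95 to 0.96). For Isg15 they were Hmox1, Cacnb3 and Plin2 (0.91 to 0.92), and Hmox1, Ifi27l2a and Cacnb3 for Usp18 (0.90 to 0.93). For Ifitm1 they were Ccl2, Ppm1j and Dkkl1 (0.92 to 0.94), for Ifitm2 S100a1, Jun and Plin2 (0.93 to 0.96) and for Ifitm3 Ifi27l2a, Lilrb4b and Tmem87a (0.91 to 0.92). For Ube2l6 they were Tap1, Ly6i and Gm4951 (0.85 to 0.90), the lowest correlations of the 10. For Ifi208 they were Cd7, Ms4a6b and its relative Ifi213, each at 1.00 to 2 decimals. Between members, Isg15 and Usp18 correlated at 0.96, Ifit3 and Ifit3b at 0.96 and Ifitm2 and Ifitm3 at 0.94. Isg15 and Ube2l6 correlated at 0.60, and Ifi208 and Ifitm3 at -0.11.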

How the data were processed

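The members and all gene lists were chosen with earlier results of these data known. Normalized values came as 1 deposited table of log2 values, which the authors made in Partek per the file's name. The log base, offset and method are not stated, and the values behave as log2(value + 1), as read here. What aligned and counted the reads is not given in the sources used here. Per the labels, the protocol text gives gp33 for every sample; the titles and treatment fields were followed instead. A gene was tested if 3 or more libraries reached a value of 1. All 18 libraries entered 1 linear model of log2(value + 1), with group means as its terms, in limma 3.58.1 (R 4.3.3, statmod 1.5.0), with trended, robust empirical Bayes and 12 residual degrees of freedom. Tests were 2-sided, with 9 contrasts and Benjamini-Hochberg adjustment within each, and were tested on simulated data. The rule for named genes took all 10 members, Pik3ip1, the 3 genes of each related list with the smallest p in each genotype comparison, and the 3 genes most alike. A gene that this rule names is not reported here. Shared windows were counted in GENCODE M21 transcripts. Alternatives were another pseudocount, no filter, a filter 5 times as high, rescaled protein-coding genes, only the groups compared, plain empirical Bayes, replicate blocks and each library left out. No counting interval was computed, since the depth is unknown.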

Additional observations from a re-analysis of the deposited data

Results flagged for a closer look

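The responses of 10 gene and treatment pairs differed between genotypes by the test of the difference itself, given as the log2 response in the libraries labelled KO minus that in WT. For gp33 the differences were -1.60 for Ifit3 (limma adjusted p = 1.03e-04), -2.62 for Ifit3b (2.29e-07), -3.13 for Ifitm2 (8.17e-07) and -1.33 for Ube2l6 (1.20e-04). For the inhibitor they were -1.03 for Ifit1 (limma adjusted p = 0.0343), -0.73 for Ifit3 (0.0456), -1.59 for Ifitm3 (0.0390), -1.67 for Isg15 (3.03e-05), -1.02 for Usp18 (0.00292) and 1.09 for Ube2l6 (0.00155). The value for Ube2l6 is the only positive one among the 6. The inhibitor differences of Ifit1, Ifit3 and Ifitm3 did not pass the threshold without 1 or another of the libraries compared, with limma adjusted p up to 0.0972, 0.116 and 0.0983. With a pseudocount of 0.25, that of Ifitm3 was -1.36 and not called (limma adjusted p = 0.279).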

How the results depend on the processing

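The number of the 10 genes called without peptide (9), with gp33 (9) and with inhibitor (3) between genotypes kept within 1.5 times its value under every alternative, as did those for the gp33 responses, their difference, and the inhibitor in the libraries labelled KO. The count for the inhibitor in WT was 3, and 1 with no filter, 1 with only the groups compared, and 1 to 3 with each library left out. The count of differing inhibitor effects was 6, 3 with no filter, and 3 to 7 with each library left out. No member changed direction where called. Counts over all genes moved more: 1326 without peptide became 2546 with no filter, 697 with the higher filter and 526 from the groups compared; 2457 with gp33 became 3755, 1468 and 3690; 474 with inhibitor became 83 from the groups compared. With protein-coding genes alone, rescaled, 399 were higher and 1004 lower without peptide, against 584 and 742, and 1571 and 528 with gp33, against 1525 and 932. Rescaling moved the median of 5781 shared genes by 0.11 for gp33 in the libraries labelled KO, and by less than that elsewhere. Libraries that share the first letter of their name correlated in their deviations from group means at -0.03 to 0.22 (median 0.04), over 0.1 in 4 of 18 pairs. Those with the same number in the other genotype did so at -0.37 to 0.08 (median -0.02), over 0.1 in 0 of 27 pairs. With so few libraries, these values cannot settle whether libraries that share a letter had a common source. With a replicate block the inhibitor count in WT was 2, since Ube2l6 (limma adjusted p = 0.0503, block by number) or Ifitm3 (0.0506, block by letter) was not called, and that of differing inhibitor effects 5. The unknown depth sets the limit for genes with values near 0, such as Ifitm1 in WT.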

Other observations

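The relatives of Ifi208 in the Ifi200 family were also measured. Of 6 relatives tested of 15 listed, all 6 fell with gp33, by a median log2 fold change of -2.92 in WT and -2.91 in KO-labelled libraries. Among all genes tested, 31.6% were called lower with gp33 in WT and 27.3% in KO-labelled libraries. With inhibitor, Mndal at 0.82, Ifi209 at 0.87, Ifi203 at 0.75 and Ifi214 at 0.48 were higher in WT (limma adjusted p of 4.73e-05 to 0.00644). In the libraries labelled KO 0 were higher, and Ifi214 and Ifi206 were lower at -0.29 each (limma adjusted p = 0.0347 and 0.0496). Of all genes tested, 3.31% were called higher with inhibitor in WT and 19.3% lower in the libraries labelled KO. The inhibitor effect differed between genotypes in 5 of the 6, with log2 differences from -0.55 for Ifi206 to -0.79 for Mndal (limma adjusted p = 0.0284 and 0.00115), against 9.74% of all genes tested. These genes were named after their values were seen.

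Of the 22 interferon gamma response genes tested, 15 rose and 0 fell with inhibitor in the libraries labelled KO (median log2 fold change 0.53), the direction of Ube2l6 and opposite to that of Isg15 and Usp18 in the same libraries. In WT 4 rose and 0 fell (median 0.19). Of all genes tested, 9.17% rose and 19.3% fell in the libraries labelled KO, and 3.31% and 5.15% in WT.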
